A study of Mus musculus with 4 samples.

Results

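Genes of innate RNA sensing and interferon signalling, 9 of the 30282 genes in the table, were followed in mouse embryonic stem cells treated to deplete an RNA polymerase II subunit. They were taken by symbol: the RNA sensors Ddx58 and Ifih1, their adaptor Mavs, the transcription factors Irf3, Irf1, Stat2 and Irf9, and the effectors Bst2 and Isg15. All 9 symbols had a row, and 7 had a mean of at least 10 normalised reads over the libraries, the limit set for testing. The 2 below that limit were Ifih1 and Isg15.

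The cells were V6.5 embryonic stem cells, a mouse line, in which RPB3, a core subunit of RNA polymerase II, was fused to a minimal auxin-inducible degron (mAID) and GFP. Both groups had doxycycline at 1 µg/ml for 12 h, which switches on TIR1, the plant protein that marks the degron for destruction. The IAA group (2 libraries) then had indole-3-acetic acid, an auxin, at 500 µM for 12 h, and the Untreated group (2 libraries) had doxycycline only. Both were grown with the GSK3 inhibitor CHIR99021 and the MEK inhibitor PD0325901. The labels describe poly(A) RNA sequencing and state neither separate cultures nor how many clones were used, so the p-values reflect only how far these libraries differ from each other, which may be technical. The treatment protocol also mentions depletion for a shorter time than the sample labels do, and the labels' 12 h is used. No library with IAA but without the degron was analysed here.

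RIG-I, encoded by Ddx58, and MDA5, encoded by Ifih1, bind double-stranded RNA in the cytosol and signal through MAVS on mitochondria. MAVS recruits kinases that activate IRF3, which switches on interferon genes. Secreted interferon acts through its receptor and the JAK kinases to assemble a complex with STAT2 and IRF9 that binds the interferon-stimulated response element (ISRE) of target genes. Pluripotent stem cells are known for a weak interferon response.

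The promoters of the genes that turned out lower are shown with those of the barely detected Isg15 and Ifih1, since the same response element occurs in all of them. The ISRE was searched on both strands as GAAA, any 2 bases, then GAAA, in RefSeq windows (GRCm38.p6) running from 250 bases before to 50 bases after each annotated start, and all 9 genes had a window. It was found in 5 of the 9, Ddx58, Stat2, Bst2, Isg15 and Ifih1, and in 3.99% of the 27025 gene symbols with a window. Capitals mark the ISRE letters on either strand, so that TTTC pairs are the motif read from the other strand, and the last line shows the GAS element of Irf1, TTCNNNGAA, known from interferon gamma targets.
Ddx58, chr4:40239804-40239833, minus strand: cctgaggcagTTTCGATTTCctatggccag
Stat2, chr10:128270251-128270310, plus strand: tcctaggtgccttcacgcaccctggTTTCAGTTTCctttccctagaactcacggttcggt
Bst2, chr8:71537562-71537627, minus strand: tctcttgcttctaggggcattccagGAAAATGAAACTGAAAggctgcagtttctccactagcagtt
Isg15, chr4:156200850-156200921, minus strand: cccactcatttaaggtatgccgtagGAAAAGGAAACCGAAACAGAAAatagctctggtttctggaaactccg
Ifih1, chr2:62646206-62646233, minus strand: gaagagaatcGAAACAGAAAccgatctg
Irf1, chr11:53769899-53769957, plus strand: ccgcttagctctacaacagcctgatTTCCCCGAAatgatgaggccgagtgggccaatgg

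With the first transcribed base counted as 0, Isg15 held 3 overlapping copies of the ISRE from -78 to -57, and Bst2 held 2 overlapping copies from -130 to -115. Stat2 had a single match from -222 to -213. In Ddx58 and Ifih1 the match lay after the start, from 2 to 11 in Ddx58 and from 32 to 41 in Ifih1. No window of Mavs, Irf3, Irf1 or Irf9 held these letters, which says only that they are not in these windows. The shorter IRF core AANNGAAA, which every ISRE contains, was in the same 5 genes and in 26.7% of gene symbols. The GAS letters, the same on both strands, were in a window of Irf1 and in Bst2, where they overlap the ISRE, and in 9.55% of gene symbols.

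**Figure D1:**
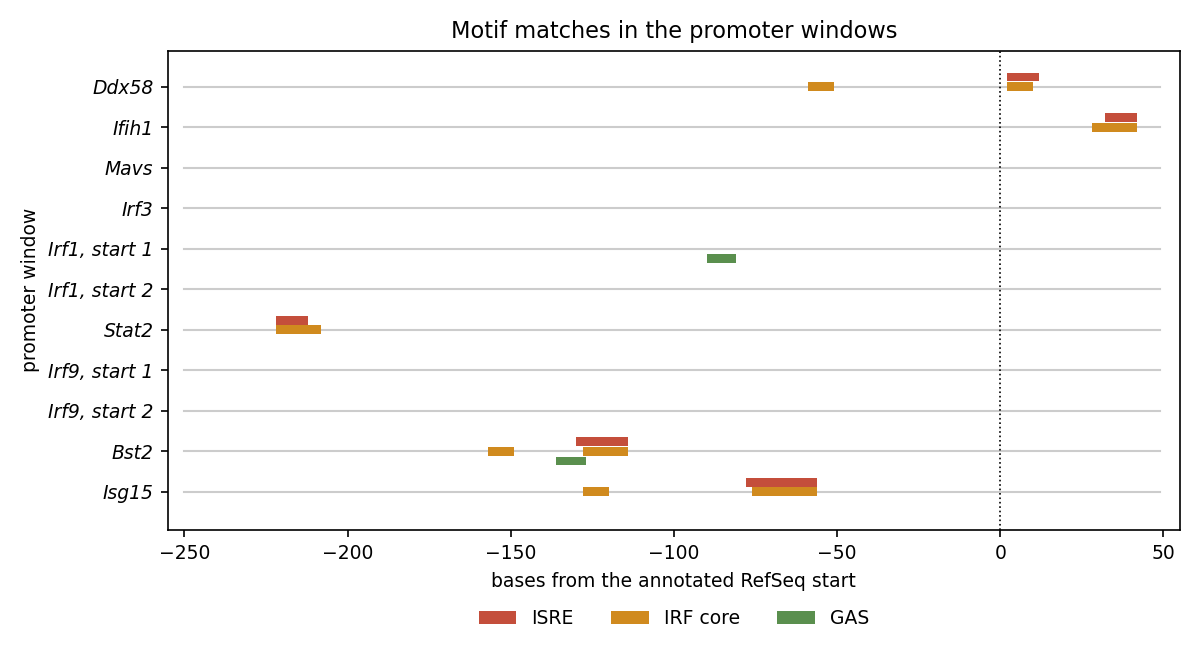
Matches to 3 motifs in the promoter windows of the 9 genes, 1 row per annotated start (Irf1 and Irf9 have 2), with the distance in bases from the RefSeq start on the x axis. Coloured bars span the matches; ISRE matches are in Ddx58, Ifih1, Stat2, Bst2 and Isg15, and the rows of Mavs, Irf3, Irf9 and the second Irf1 start are empty.

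After IAA, 3 of the 7 tested genes passed as lower, namely the sensor gene Ddx58, Stat2 and Bst2. None passed as higher by limma or by voom, and 0 did at an unadjusted p under 0.05. The values for Mavs, Irf3, Irf1 and Irf9 did not pass. Tests used limma, a linear model with shared variance, on log2(value + 1) over 14928 genes, with p-values adjusted by the Benjamini-Hochberg method and a threshold of 0.05. Over all genes tested 28.9% were called lower, 11.1% higher and 39.9% in either direction, so calls were frequent in general. The median log2 fold change was -0.23 for the 7 genes and -0.11 for all genes tested. Values below are read counts that the authors divided by a size factor for each library. In bulk RNA, fewer cells of a type and less RNA per cell cannot be told apart.

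The recovered whole reads totalled 8724737 to 9194432 per library. Polr2c, the gene of the degraded subunit, had 3242 and 3158 normalised reads in IAA libraries and 2726 and 2885 in Untreated libraries, which does not measure the protein. Stem cell markers Pou5f1, Sox2, Nanog, Zfp42, Esrrb, Tfcp2l1, Dppa5a and Klf4 were all detected, summing to 53945 to 56078 in IAA libraries and 51426 to 53210 in Untreated libraries, with 3 of the 8 lower (among them Dppa5a, -0.36) and 3 higher (among them Klf4, 0.52). Fibroblast (feeder) markers, of which 8 of 12 were in the table, summed to 555 to 566 in IAA libraries and 633 to 715 in Untreated libraries. Of the 6 fibroblast markers tested, 2 were lower (Col1a1, -0.76, and Thy1, -0.78) and 0 higher. Pdgfra had a positive log2 fold change (0.34), and Pdgfrb (-0.10), Fbn1 (-0.11) and Twist1 (-0.23) negative ones, and none of these passed. Blood cell markers, of which 7 of 9 were in the table, summed to 105 to 121 in IAA libraries and 136 to 166 in Untreated libraries, and neither of the 2 tested passed (Cd68, -0.41, and Cd3e, -0.32). Col3a1, Lyz2 and Csf1r were at 0 to 2 normalised reads in every library. The fibroblast and blood cell sums were lower in IAA libraries, as Ddx58, Stat2 and Bst2 were, and their part in those results was not tested. Calls also depend on the scaling. Median-of-ratios factors computed from the mouse genes moved the log2 fold changes up by 0.10 at the median, to a median of -0.01, and calls of higher were then 49.9% of calls, against 27.7% at the deposited scaling. They called 20.5% of genes lower, 20.4% higher and 40.8% in either direction, and of the 7 genes 3 lower and 1 higher.

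Among the sensors, Ddx58 was clearly expressed and fell, while Ifih1 was near the limit of detection. Ddx58 (ENSMUSG00000040296, chromosome 4, 40203773 to 40239828, minus strand, GENCODE M21 on GRCm38, 18 exonic blocks) had 160 and 178 normalised reads in IAA libraries, against 297 and 293 in Untreated libraries. Both IAA libraries lay well below both Untreated ones. The mean was 169 ± 12.7 after IAA and 295 ± 2.83 in Untreated cells (SD, n = 2 each), a log2 fold change of -0.80 (SE 0.10, 95% interval -1.02 to -0.59, limma adjusted p = 3.91e-06), so that 57.3% of the Untreated level was left. Only 4.65% of tested genes had a lower log2 fold change. The authors' deposited table gave it -0.80 (SE 0.24) with an adjusted p of 0.00898.

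Ifih1 (ENSMUSG00000026896, chromosome 2, 62595798 to 62646255, minus strand) had 1 and 2 normalised reads in IAA libraries and 1 and 0 in Untreated libraries. Its recovered reads summed to 3 after IAA (95% Poisson interval 0.62 to 8.77) and to 1 in Untreated cells (0.025 to 5.57), intervals that cover counting error only. No difference was detectable at this depth, and no fold change is given.

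Mavs, the shared adaptor, was lower in both IAA libraries by a small amount that did not pass. It (ENSMUSG00000037523, chromosome 2, 131234063 to 131248025, plus strand) had 377 and 374 normalised reads in IAA libraries and 419 and 431 in Untreated libraries. The groups did not overlap, and the log2 fold change was -0.18 (SE 0.078, 95% interval -0.34 to -0.016, limma adjusted p = 0.0741). Relative to the median of all genes the difference was -0.07. The authors' deposited table gave Mavs an adjusted p of 0.593. Among the 7 genes tested 6 had groups that did not overlap with IAA lower, a pattern shared by 45.6% of all genes tested, and none had IAA higher without overlap, which 22.5% of genes had.

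Irf3, the factor that MAVS signalling activates, lay at the threshold by limma at the deposited scaling. Irf3 (ENSMUSG00000003184, chromosome 7, 44997648 to 45002848, plus strand) had 286 and 319 normalised reads in IAA libraries and 341 and 366 in Untreated libraries. The log2 fold change was -0.23 (SE 0.089, 95% interval -0.41 to -0.039), with a limma adjusted p of 0.0503. The same data gave 0.0388 with limma's voom, which weights recovered reads by their counting precision, and 0.0495 with the replicate number as a block. With median-of-ratios factors it gave 0.274 and a log2 fold change of -0.12. The authors' deposited table gave Irf3 -0.23 (SE 0.20) with an adjusted p of 0.531, far from passing. Single libraries moved both value and call, from -0.15 without IAA replicate 1 (voom adjusted p = 0.353) to -0.30 without IAA replicate 2 (voom adjusted p = 0.0344). Voom also called it without Untreated replicate 1 (adjusted p = 0.0398) and did not without Untreated replicate 2 (0.233). Irf3 shares 88 exonic bases with Bcl2l12 on the opposite strand, 2.56% of its exonic length. Bcl2l12 had 114 and 116 normalised reads in IAA libraries and 130 and 132 in Untreated libraries, and the strand setting of the counting is not given in the sources used here.

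Irf1, a factor induced by interferon gamma in many cells, was the only one of the 7 genes tested with a positive log2 fold change at the deposited scaling, and its groups overlapped. Irf1 (ENSMUSG00000018899, chromosome 11, 53770014 to 53778374, plus strand) had 337 and 314 normalised reads in IAA libraries and 319 and 279 in Untreated libraries. The log2 fold change was 0.12 (SE 0.093, 95% interval -0.07 to 0.32, limma adjusted p = 0.305). With median-of-ratios factors it was 0.22 with a limma adjusted p of 0.0435, so whether it counts as higher depends on the scaling. It was 0.03 without Untreated replicate 2, 0.07 without IAA replicate 1 and 0.22 without Untreated replicate 1. These are effect sizes only, since limma called no gene at all without 1 library. It shares 135 exonic bases with Gm17334 on the opposite strand, which had 8 to 17 normalised reads in IAA libraries and 7 to 14 in Untreated libraries.

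Stat2 and Irf9 encode partners of 1 complex, and Stat2 fell while Irf9 did not pass. Stat2 (ENSMUSG00000040033, chromosome 10, 128270559 to 128292849, plus strand, 19 exonic blocks) had 627 and 573 normalised reads in IAA libraries, against 969 and 1076 in Untreated libraries. No IAA library came near an Untreated one. The mean was 600.0 ± 38.2 after IAA and 1022.5 ± 75.7 in Untreated cells (SD, n = 2 each), a log2 fold change of -0.77 (SE 0.067, 95% interval -0.91 to -0.63, limma adjusted p = 3.75e-08). A level of 58.7% was left, and 5.44% of tested genes had a lower log2 fold change. In the authors' deposited table the adjusted p was 1.97e-06.

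Irf9 (ENSMUSG00000002325, chromosome 14, 55603571 to 55610030, plus strand) had 189 and 171 normalised reads in IAA libraries and 222 and 193 in Untreated libraries. The groups lay next to each other without overlap. The log2 fold change was -0.20 (SE 0.11, 95% interval -0.44 to 0.035, limma adjusted p = 0.168). It was -0.10 without Untreated replicate 1, -0.13 without IAA replicate 2, -0.27 without IAA replicate 1 and -0.30 without Untreated replicate 2. These are given as effect sizes only, since limma called no gene at all without 1 library. With median-of-ratios factors it was -0.10 and did not pass (limma adjusted p = 0.496). Irf9 shares 123 exonic bases with Rnf31 on the same strand, and Rnf31 itself was lower, with 550 and 532 normalised reads in IAA libraries and 757 and 689 in Untreated libraries (log2 fold change -0.42). Within a library, where scaling cancels, Stat2 had 3.32 and 3.36 recovered reads per read of Irf9 in IAA libraries and 4.37 and 5.57 in Untreated libraries.

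Bst2, which encodes tetherin, a membrane protein that holds budding virus at the cell surface, had the highest level per kilobase of the 9 genes and fell. It (ENSMUSG00000046718, chromosome 8, 71534255 to 71537456, minus strand, 5 exonic blocks) had 941 and 887 normalised reads in IAA libraries, against 1260 and 1289 in Untreated libraries. The mean was 914 ± 38.2 after IAA and 1274.5 ± 20.5 in Untreated cells (SD, n = 2 each), a log2 fold change of -0.48 (SE 0.055, 95% interval -0.59 to -0.36, limma adjusted p = 1.06e-06). A level of 71.7% was left, against 57.3% of Ddx58 and 58.7% of Stat2, a difference that was not tested, and 15.0% of tested genes had a lower log2 fold change. The authors' deposited table gave an adjusted p of 0.000966.

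Isg15, whose product is a ubiquitin-like protein conjugated to others during the interferon response, had 4 and 2 normalised reads in IAA libraries and 2 and 2 in Untreated libraries. Isg15 (ENSMUSG00000035692, chromosome 4, 156199424 to 156200818, minus strand) gave 6 recovered reads after IAA (95% Poisson interval 2.20 to 13.1) and 4 in Untreated cells (1.09 to 10.2). A difference was not detectable at this depth. Its promoter, printed above, carries 3 copies of the ISRE, more than that of any other of the 9 genes, beside very few reads in either group.

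**Figure D2:**
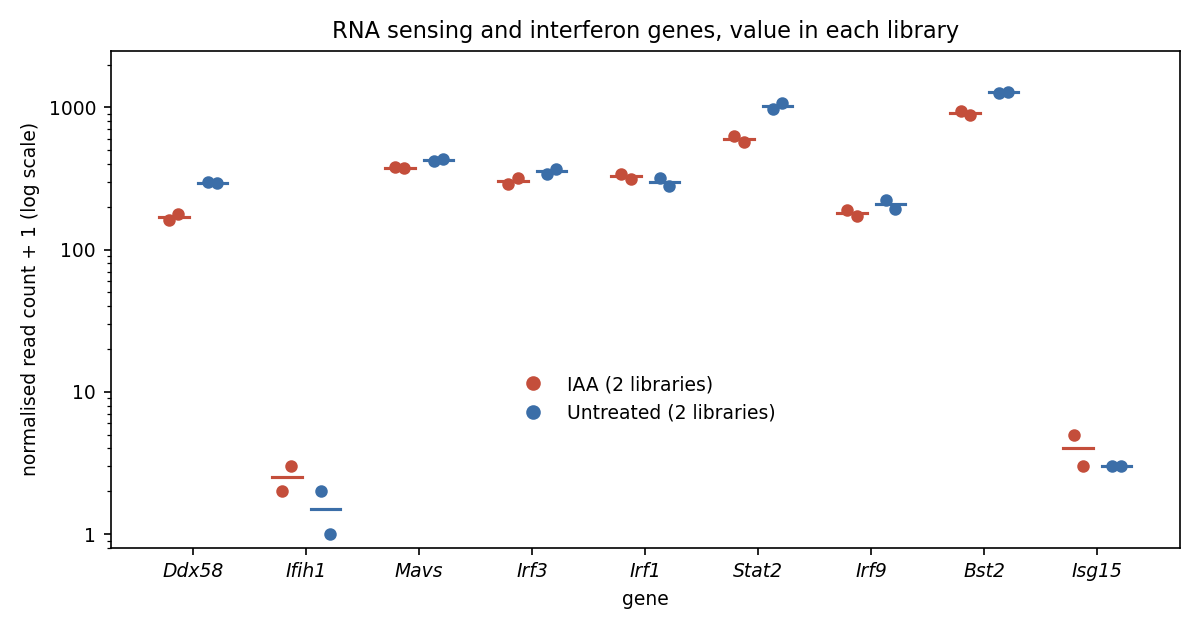
Normalised read count plus 1 (y axis, log scale) of the 9 genes in each library, IAA to the left of Untreated; points are libraries and lines the mean of 2. Ddx58, Stat2 and Bst2 separate by group, while Ifih1 and Isg15 stay between 0 and 4 normalised reads.

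Levels of different genes were compared per kilobase of exonic sequence, which is a rough scale. The 9 genes ran from Bst2 at the top to Ifih1 at the bottom in both groups. After IAA the order was Bst2 (1012 normalised reads per kilobase), Mavs (112), Stat2 (101), Irf3 (87.9), Irf1 (81.9), Irf9 (33.4), Ddx58 (23.97), Isg15 (3.97) and Ifih1 (0.18). In Untreated cells it was Bst2 (1411), Stat2 (172.5), Mavs (127), Irf3 (103), Irf1 (75.2), Ddx58 (41.8), Irf9 (38.5), Isg15 (2.65) and Ifih1 (0.061). Stat2 was thus below Mavs after IAA and above it in Untreated cells, and Ddx58 below Irf9 after IAA and slightly above it in Untreated cells. Neighbours overlapped between libraries in 1 place, Irf3 and Irf1 after IAA. Lengths are unions of GENCODE M21 exons, 5386 bases for Irf9 and 903 for Bst2. A union can be longer than any single transcript, and for Irf9 it takes up most of the 6460 bases that the gene spans. The order of close neighbours, such as Ddx58 and Irf9, therefore depends on this choice of length.

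Ratios of recovered reads within a library, chosen with the values known, do not depend on the scaling. Ddx58 had 0.43 and 0.48 recovered reads per read of Mavs in IAA libraries and 0.71 and 0.68 in Untreated libraries. The ratio of Ddx58 to Stat2 was 0.28 ± 0.039 after IAA and 0.29 ± 0.024 in Untreated cells (SD, n = 2 each), and the libraries of the 2 groups overlapped. Bst2 to Irf3 was 3.04 ± 0.36 after IAA and 3.61 ± 0.12 in Untreated cells. Over the 4 libraries tested genes close in profile to Ddx58, by the root-mean-square distance of centred log2 values, included Lrrc56 (0.0086) and Gpa33 (0.023). Lrrc56 had 113 and 124 normalised reads in IAA libraries and 207 and 206 in Untreated libraries.

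The calls of Ddx58, Stat2 and Bst2 stood under both other scalings, both other pseudocounts and voom, and their adjusted p also passed in the authors' deposited table, in which 9.57% of genes with an adjusted p were lower, 2.47% higher and 12% either. With no filter on low values all 3 lay close to the threshold. Ddx58 (limma adjusted p = 0.0487) and Bst2 (0.0476) passed narrowly, and Stat2 (0.0524) narrowly did not. A label column in the authors' deposited table lists all 9 genes as unchanged, by a criterion not given in the sources used here. Removing any of the 4 libraries (IAA replicate 1 or 2, Untreated replicate 1 or 2) left limma with 0 of 14928 genes called, although 4734 to 5070 genes had an unadjusted p under 0.05. The limma adjusted p of the 3 genes was then 0.0929 to 0.111, in fits that take the spread of a single remaining library from the group that kept both. Voom without each library in turn called all 3 (largest adjusted p = 3.79e-06), with log2 fold changes from -0.88 to -0.73 for Ddx58, -0.84 to -0.69 for Stat2 and -0.52 to -0.44 for Bst2.

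**Figure D3:**
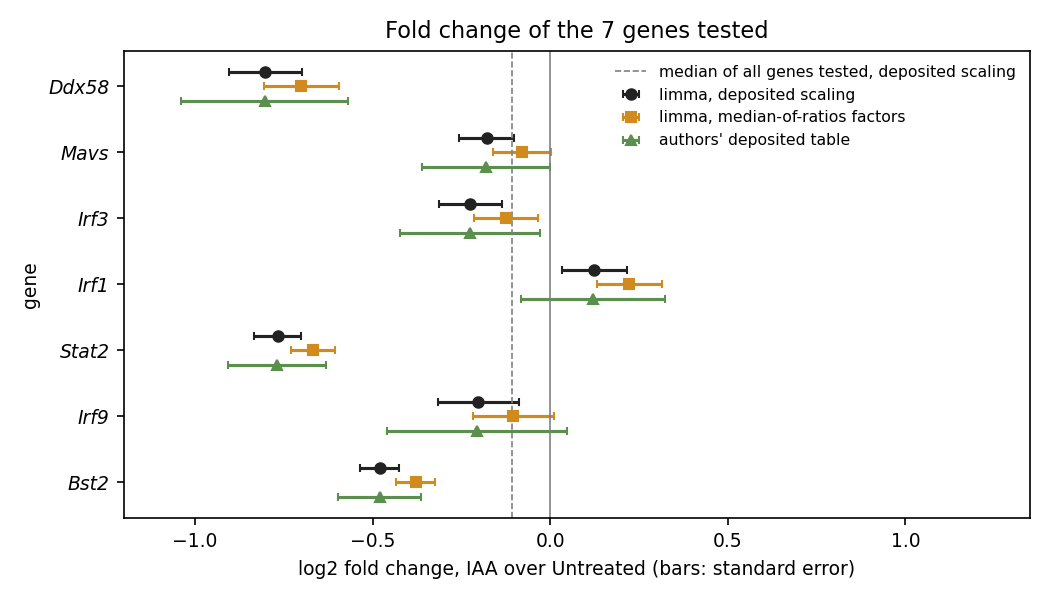
Log2 fold change, IAA over Untreated (x axis), of the 7 genes tested by limma at the deposited scaling, by limma with median-of-ratios factors and in the authors' deposited table; bars are standard errors and the dashed line is the median of all genes tested, -0.11. Ddx58, Stat2 and Bst2 lie left of that line under all 3, and Irf1 is the only gene to the right of 0.

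The surrounding pathway was mixed. Of 158 other genes on 6 lists, 141 had a row and 116 were tested, of which 31 (26.7%) were lower and 15 (12.9%) higher, beside 28.9% and 11.1% of all genes. Their median log2 fold change was -0.02, against -0.11 for all genes tested. Under median-of-ratios scaling the median was 0.07, with 19 genes lower and 28 higher. Of the 96 with an adjusted p in the authors' deposited table, 3 were lower and 1 was higher. The counts of single lists given next rest on all 4 libraries. Without any 1 library limma called no gene, as given above, and the counts by voom are given beside each list.

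**Figure D4:**
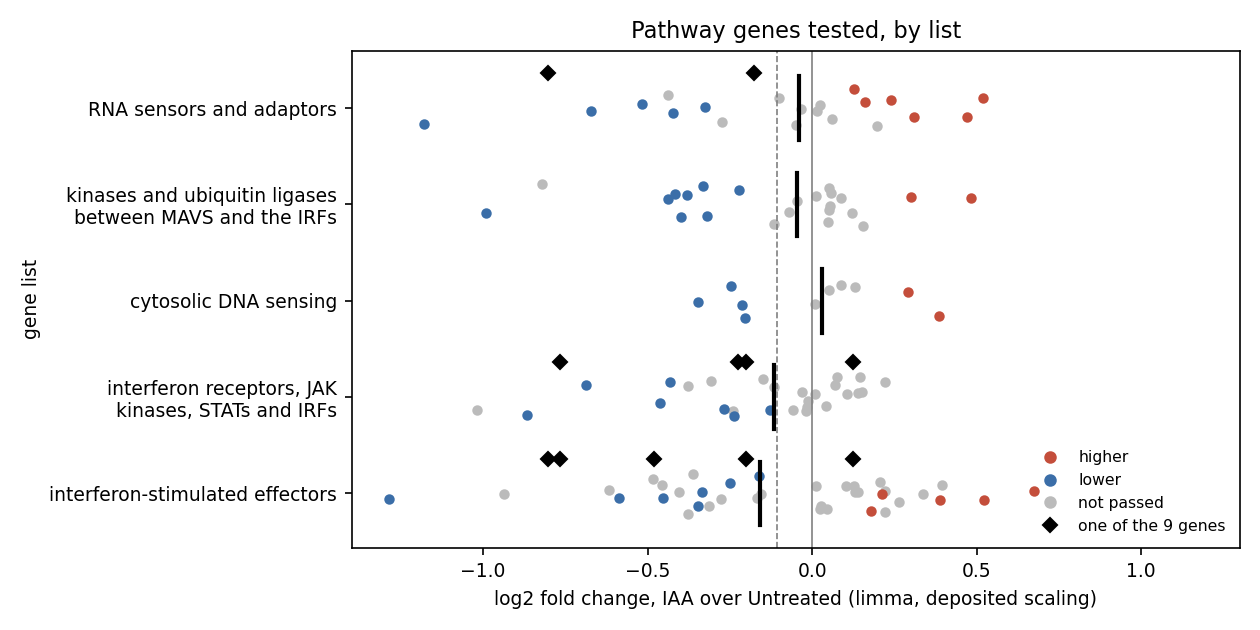
Log2 fold change, IAA over Untreated (x axis, limma at the deposited scaling), of the pathway genes tested, by list (y axis). Points are genes by call, diamonds the 9 genes where tested, black bars list medians with those genes included and the dashed line the median of all genes tested, -0.11; each list has genes on both sides of 0.

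Other RNA sensors and their cofactors moved both ways, with 5 lower and 6 higher of 20 tested (median -0.01). Under median-of-ratios scaling 3 were lower and 7 higher (median 0.09). Of the 18 with an adjusted p in the authors' deposited table, 1 was lower and 1 higher. None of the sensors and cofactors named next passed there. Voom called 3 to 5 lower and 4 to 5 higher without 1 library, the 3 being without IAA replicate 2. Dhx58, whose product LGP2 is the third RIG-I-like receptor, was lower at a low level, with 6 and 15 normalised reads in IAA libraries and 23 and 23 in Untreated libraries (log2 fold change -1.18, SE 0.40). Prkra, an activator of the kinase PKR, was lower (-0.67), and Ticam1, the adaptor of the endosomal sensor TLR3, was higher (0.52). The ligase Trim25, which modifies RIG-I, and Zcchc3, which helps RIG-I bind RNA, were also higher, at 0.13 and 0.47, and these 2 were named after their values were seen. Eif2ak2, the PKR gene, had 539 and 589 normalised reads in IAA libraries and 555 and 525 in Untreated libraries and did not pass (limma adjusted p = 0.526). It was also named after its values were seen.

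Between MAVS and the IRFs, 8 of 23 genes were lower and 2 higher (median -0.05). Under median-of-ratios scaling 6 were lower and 5 higher (median 0.06). Of the 21 with an adjusted p in the authors' deposited table, 2 were lower, Rnf31 and Rbck1, and 0 higher. At an unadjusted p under 0.05, 5 were lower and 1 higher there. Voom called 6 to 7 lower and 1 to 3 higher without 1 library, the 1 being without IAA replicate 2. Tnfaip3, encoding the brake A20, was lower (-0.99) at 9 to 21 normalised reads in IAA libraries and 28 to 29 in Untreated libraries. Traf6, a ubiquitin ligase of the pathway, was higher with 398 and 379 normalised reads in IAA libraries and 256 and 301 in Untreated libraries (0.48, SE 0.092, limma adjusted p = 0.000325). Nfkb1 was lower (-0.44). The genes of the linear ubiquitin complex, Rnf31 (-0.42), Rbck1 (-0.38) and Sharpin (-0.32), were all lower, named after their values were seen. With median-of-ratios factors Sharpin no longer passed (limma adjusted p = 0.0727). Tbk1, the kinase that phosphorylates IRF3, had a log2 fold change of 0.16 and did not pass at the deposited scaling (limma adjusted p = 0.0756). It passed as higher with median-of-ratios factors (limma adjusted p = 0.0012), and was also named after its values were seen.

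Cytosolic DNA sensing had 4 lower and 2 higher of 10 tested (median 0.03). Under median-of-ratios scaling 1 was lower and 2 were higher (median 0.13). Voom called 1 lower without replicate 2 of either group and 2 lower without replicate 1 of either group, and 1 to 2 higher, the 1 being without IAA replicate 2 or Untreated replicate 1. The authors' deposited table called 0 of 10, with 1 lower and 0 higher at an unadjusted p under 0.05. Sting1, the adaptor of that pathway, was higher with 214 and 232 normalised reads in IAA libraries and 156 and 186 in Untreated libraries (0.39, SE 0.12, limma adjusted p = 0.0112). Dnase2a, a lysosomal nuclease, was higher (0.29) and Zdhhc1, whose product is known to bind STING, was lower (-0.35), a call lost under median-of-ratios scaling (limma adjusted p = 0.0955).

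Interferon receptors, JAK kinases, STATs and IRFs other than the 4 followed here had 7 lower and 0 higher of 27 by limma (median -0.06), with 2 higher at an unadjusted p under 0.05. Voom called 8 lower and 0 higher, and 4 to 7 lower and 0 higher without 1 library, the 4 being without IAA replicate 1. Under median-of-ratios scaling 4 were lower and 5 higher (median 0.04). The authors' deposited table called 0 of the 24 with an adjusted p, with 4 lower and 0 higher at an unadjusted p under 0.05. Irf8, a factor best known from myeloid cells, had 71 and 58 normalised reads in IAA libraries and 102 and 136 in Untreated libraries (-0.87, SE 0.18, limma adjusted p = 0.000547). Stat5a (-0.69) and Stat6 (-0.46), which serve other cytokines, were lower too. The receptor genes Ifnar1 (0.04) and Ifnar2 (-0.31) and the kinases Jak1 (-0.06) and Tyk2 (-0.11) did not pass, and were named after their values were seen. Of 9 interferon genes listed, 1 had a row, Ifnk, with 2 and 3 normalised reads in IAA libraries and 1 and 0 in Untreated libraries, and the other 8 were not analysed here.

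Of 59 other interferon-stimulated genes, 56 had a row, and 19 of these averaged under 10 normalised reads, among them Ifit3, Mx1, Rsad2 and Cxcl10. Mx1 had 3 and 7 normalised reads in IAA libraries and 0 and 0 in Untreated libraries. Ifit3, Rsad2 and Cxcl10 had 0 to 2 in every library, and none of these low genes was tested. Of the 37 tested, 7 were lower and 5 higher (median 0.01). Under median-of-ratios scaling 5 were lower and 9 higher (median 0.11). Voom called 4 to 6 lower without 1 library, the 4 being without either IAA library. It called 1 higher without Untreated replicate 1, 2 without either IAA library and 4 without Untreated replicate 2. The authors' deposited table called 0 of the 24 with an adjusted p, with 0 lower and 1 higher at an unadjusted p under 0.05. Trim14 (-1.29, SE 0.38) was lower at a low level. Its normalised reads were 11 and 7 in IAA libraries and 25 and 21 in Untreated libraries. Tor3a (-0.59) was lower too. Irgm1, an immunity-related GTPase, was higher (0.67, SE 0.22, limma adjusted p = 0.0193). It had 54 and 54 normalised reads in IAA libraries and 35 and 32 in Untreated libraries. Ifitm1 (-0.33) and Ifitm3 (-0.35), membrane proteins that block virus entry, were lower, and Dtx3l (0.52), a ubiquitin ligase, and Parp14 (0.39), an ADP-ribosyltransferase, were higher. These 4, and the low genes given above, were named after their values were seen.

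The presence of an ISRE was also set beside the calls across the table. Among the 9 genes, the 3 that fell held an ISRE and the 4 that were tested and did not pass held none. Of 347 other tested genes with an ISRE in a window, 110 (31.7%) were lower and 36 (10.4%) higher, with a median of -0.13. Of 10371 tested genes with a window and no ISRE, 30.5% were lower and 11.7% higher, with a median of -0.10. Among other interferon-stimulated genes with an ISRE, 8 were tested, of which 1 was lower and 1 higher. Among those with a window and no ISRE, 21 were tested, of which 4 were lower and 3 higher. Over all lists, 3 of 17 tested genes with an ISRE were lower and 1 higher. Of 78 with none, 21 were lower and 11 higher. This comparison was chosen after the values of the 9 genes were seen and is a description.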

How the data were processed

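The 4 libraries share one table of 30282 mouse genes. Tools listed, with no role, in the submitters' processing notes are DESeq2, featureCounts, STAR, Bowtie2, cutadapt 1.18, deepTools and SAMtools, and the builds are mm10 and dm6. Which annotation was counted is not given in the sources used here. Each library's deposited column holds a score, its reads over a size factor, rounded by the authors, as worked out from the values. The mean column deposited by the authors is an unrounded signal. From it the factors came out as 0.98 and 0.95 (IAA) and 0.88 and 0.87 (Untreated), and whole reads were recovered for 100% of genes (tolerance 0.001). No source states whether mouse reads or the Drosophila S2 spike-in described in the labels set these factors. The log2 fold changes with standard errors, the Wald score and the p-values of the DESeq2 fit are the authors' own, and are named as the authors' deposited table.

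Since the deposited columns are scaled and rounded, tests used log2 values, with limma's voom on the recovered reads as an alternative and no negative binomial model. Genes with a mean of at least 10 (14928; 15354 left out) were tested with limma 3.58.1 in R 4.3.3 on log2(value + 1) with an empirical Bayes trend, a scale that understates changes of low genes. The fit was tested on simulated data. Their spread between replicates was a fixed setting, not estimated from these libraries, so that test does not measure error rates here. An exact permutation of 2 against 2 libraries cannot give a p below 0.333, so none was used. Coordinates and exons are those of GENCODE M21 (30214 gene IDs matched), and promoter sequences are RefSeq's.

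The 9 genes, the lists and the promoter motifs were chosen with earlier results of these data known. The rule for other names took, per list, the 3 called genes of largest change, or the 2 of highest level where none was called (for interferon genes, the single gene with a row), the 3 genes closest in profile to the gene of largest change (predicted genes and pseudogenes left out), and genes sharing exons with the 9. A gene that this rule names is not reported here. Alternatives were other scalings, pseudocounts (0.5 and 5), filters (none, and a mean of at least 100), thresholds (0.01 and 0.1), voom, a replicate block, the authors' test and leaving out each library. Voom without each library was added after seeing the data.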

Additional observations from a re-analysis of the deposited data

How the results depend on the processing

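Among all genes, 4312 were lower and 1650 higher. With no filter 638 were lower and 179 higher, and by the authors' own test in the deposited table there were 1100 lower and 284 higher. Median-of-ratios factors gave 3039 higher, library totals 3083 and a threshold of 0.01 gave 1037. Leaving out 1 library gave 0 in either direction with limma (4734 to 5070 at an unadjusted p under 0.05), and 3297 to 3999 lower and 1196 to 1452 higher with voom, added after seeing the data. Of the 9 genes, 3 were lower and 0 higher. A threshold of 0.1 gave 5 lower, median-of-ratios factors and library totals 1 higher each (Irf1), and leaving out 1 library 0 lower and 0 higher with limma, and 3 to 4 lower with voom. Without a filter Stat2 narrowly did not pass (limma adjusted p = 0.0524), while Ddx58 (0.0487) and Bst2 (0.0476) narrowly passed. The cause was not tested. No log2 fold change of the 7 genes tested turned its sign in 19 alternatives. The other thresholds, other filters and the replicate block leave each value as it was, so they could not turn a sign. Ddx58 ran from -0.88 to -0.70, Stat2 from -0.84 to -0.66 and Bst2 from -0.52 to -0.38. Mavs ran from -0.20 to -0.08, Irf3 from -0.30 to -0.12, Irf9 from -0.30 to -0.10 and Irf1 from 0.03 to 0.23. With the replicate number as a block, 4311 genes were lower and 1647 higher, and 4 of the 9 genes were lower, Irf3 being added (adjusted p = 0.0495). Same-numbered libraries did not deviate together (correlation 0.0015), so the number is not taken as a pairing. At this depth Ifih1 and Isg15 allow no comparison.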
